A study of Macaca mulatta with 8 samples.

Results

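The cytosolic ribosomal protein genes encode the proteins that, with ribosomal RNA, form the ribosomes of the cytoplasm. They were taken from the NCBI gene models of the rhesus macaque assembly Mmul_10 (rheMac10) as every autosomal protein-coding gene whose symbol is RPL or RPS followed by a number, with an optional A or X, together with RPLP0, RPLP1, RPLP2 and RPSA. The RPS6K kinases were left out. The rule found 73 gene records of 19839 autosomal protein-coding genes, 44 of the large subunit and 29 of the small subunit. They carry 71 symbols, because RPL37A and RPS27A each have 2 records, and they lie on 19 chromosomes, with 12 on chromosome 19. Another 3 genes with matching symbols (RPS4X, RPL39 and RPL10) are not autosomal and were not counted.

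Chromatin accessibility was measured by bulk ATAC-seq, in which the Tn5 transposase cuts DNA that is not packed away in nucleosomes, on primary cells of rhesus macaque developing cortex. The 4 groups were embryonic stages E50, E60, E80 and E85, all without treatment or genetic change, each with 1 culture split into 2 technical libraries, 8 libraries in all. The tissue had been frozen, thawed, dissociated and grown in a medium that enriches progenitors, so the cells are cultured cells and not cortex as collected. With 1 culture per stage, a difference between stages cannot be told apart from a difference between cultures, and no test across stages was possible.

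The values come from the authors' deposited table of merged regions, which names the peaks of each stage that fall in each region. A region was called at a stage when it held at least 1 peak of that stage, and a promoter (1000 bp on each side of every annotated start of the gene) was called when such a region overlapped it. A call is yes or no, with no height, and a promoter without one may be open below the unstated peak threshold. The E50 set held 19833 peaks, the E60 set 61956, the E80 set 60278 and the E85 set 30701. As a check of the cell label, 10 of 10 promoters of dorsal cortical progenitor genes were called at each stage and 0 of 8 of microglial genes at any. Of 8 neuronal genes, 2, 6, 5 and 2 were called at E50, E60, E80 and E85, of 6 interneuron genes 2, 5, 5 and 2, and of 4 blood genes 0, 1, 1 and 0. Astrocyte genes gave 3 of 4 at each stage, oligodendrocyte lineage genes 2, 3, 3 and 3 of 4, endothelial genes 0, 3, 2 and 0 of 6, and mural and mesenchymal genes 1, 3, 2 and 2 of 7. Over all autosomal protein-coding genes, 45.9%, 66.0%, 64.6% and 54.5% of promoters were called at E50, E60, E80 and E85. The lists are short, and no share of a cell type or change between stages is read from their counts.

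Most ribosomal proteins are made in equal amounts for every ribosome. Ribosomal protein genes are transcribed in nearly every cell type, with high output in growing and dividing cells such as neural progenitors. Their messenger RNAs begin with a run of pyrimidines, the 5′ terminal oligopyrimidine tract or TOP, which lets the growth-sensing kinase mTOR tune their translation. Each protein usually comes from a single intron-bearing gene, but genomes also carry many intronless copies that arose from its messenger RNA.

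The starts on which the results turn are shown first, read from the Mmul_10 genome 5′ to 3′ on the strand of the gene. Each shows 100 bases before the 5′ end of the gene record and 20 bases from it on. Capitals mark matches to the searched motifs described with the motif counts further on. RPL12, a protein at the base of the ribosomal stalk, and RPL23A, a protein at the exit of the nascent chain tunnel, are shown because they had the widest called regions after RPL7. RPL12 lies at chr15:13163172-13163291 (plus strand) and RPL23A at chr16:24350971-24351090 (plus strand), and both hold a YY1 match.
RPL12: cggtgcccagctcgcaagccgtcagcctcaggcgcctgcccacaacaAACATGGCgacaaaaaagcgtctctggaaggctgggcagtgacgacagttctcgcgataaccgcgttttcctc
RPL23A: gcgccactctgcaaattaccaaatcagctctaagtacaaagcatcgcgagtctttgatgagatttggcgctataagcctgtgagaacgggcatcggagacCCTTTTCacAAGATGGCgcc

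RPS3 and RPS24 are shown because they have introns and no promoter call at any stage, and RPL34 because it was called at E80 alone. RPS3 lies at chr14:68468492-68468611 (plus), RPS24 at chr9:59787257-59787376 (minus) and RPL34 at chr5:106986793-106986912 (plus). The capitals in RPS3 are a TATA match and overlapping SP/KLF matches, and the one in RPL34 is an SP/KLF match. All of these spell their motif on the strand opposite to the gene.
RPS3: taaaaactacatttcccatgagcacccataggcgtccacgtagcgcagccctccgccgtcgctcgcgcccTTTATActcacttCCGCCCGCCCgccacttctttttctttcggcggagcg
RPS24: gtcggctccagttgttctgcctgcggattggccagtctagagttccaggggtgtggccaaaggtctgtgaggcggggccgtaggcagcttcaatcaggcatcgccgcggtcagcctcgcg
RPL34: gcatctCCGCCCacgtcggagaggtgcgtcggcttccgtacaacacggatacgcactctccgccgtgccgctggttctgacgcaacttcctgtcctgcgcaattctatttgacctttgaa

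The 2 records each of RPL37A and RPS27A are shown because the record with 1 exon had no call while the record with introns had a call at all 4 stages. The RPL37A starts lie at chr5:97313014-97313133 (minus, 1 exon) and chr12:103890548-103890667 (plus, 4 exons), and the RPS27A starts at chr7:127585495-127585614 (plus, 1 exon) and chr13:53409162-53409281 (minus, 6 exons).
RPL37A on chromosome 5: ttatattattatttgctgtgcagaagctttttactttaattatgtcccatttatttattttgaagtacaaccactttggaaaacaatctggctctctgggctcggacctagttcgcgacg
RPL37A on chromosome 12: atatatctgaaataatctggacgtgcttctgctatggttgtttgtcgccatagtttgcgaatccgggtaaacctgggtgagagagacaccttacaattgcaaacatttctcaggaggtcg
RPS27A on chromosome 7: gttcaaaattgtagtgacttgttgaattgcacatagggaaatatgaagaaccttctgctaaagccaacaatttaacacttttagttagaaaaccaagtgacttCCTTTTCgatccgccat
RPS27A on chromosome 13: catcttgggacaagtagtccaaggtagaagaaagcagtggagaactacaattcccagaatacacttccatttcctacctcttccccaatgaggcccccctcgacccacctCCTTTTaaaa

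Most ribosomal protein promoters were called at every stage. At E50, 64 of 73 were called (87.7%, exact Clopper-Pearson 95% interval 77.9 to 94.2), against 45.9% of all autosomal protein-coding genes. At E60, 67 were called (91.8%, 83.0 to 96.9), against 66.0% of all genes. At E80, 68 were called (93.2%, 84.7 to 97.7), against 64.6% of all genes, and at E85, 65 were called (89.0%, 79.5 to 95.1), against 54.5% of all genes. The interval of the ribosomal protein genes lay above the share of all genes at each of the 4 stages. Counting regions of at most 1000 bp alone, this no longer held at E60 (37.0%, 26.0 to 49.1, against 27.9% of all genes) or at E80 (34.2%, 23.5 to 46.3, against 26.1%), and still held at E50 and E85. All 4 stages were called at 63 of them (86.3%, 76.2 to 93.2), against 44.3% of all genes, and no stage at 5 (6.85%), against 31.7% of all genes. The intervals cover counting error over genes alone, and not the spread between cultures or animals.

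**Figure D1:**
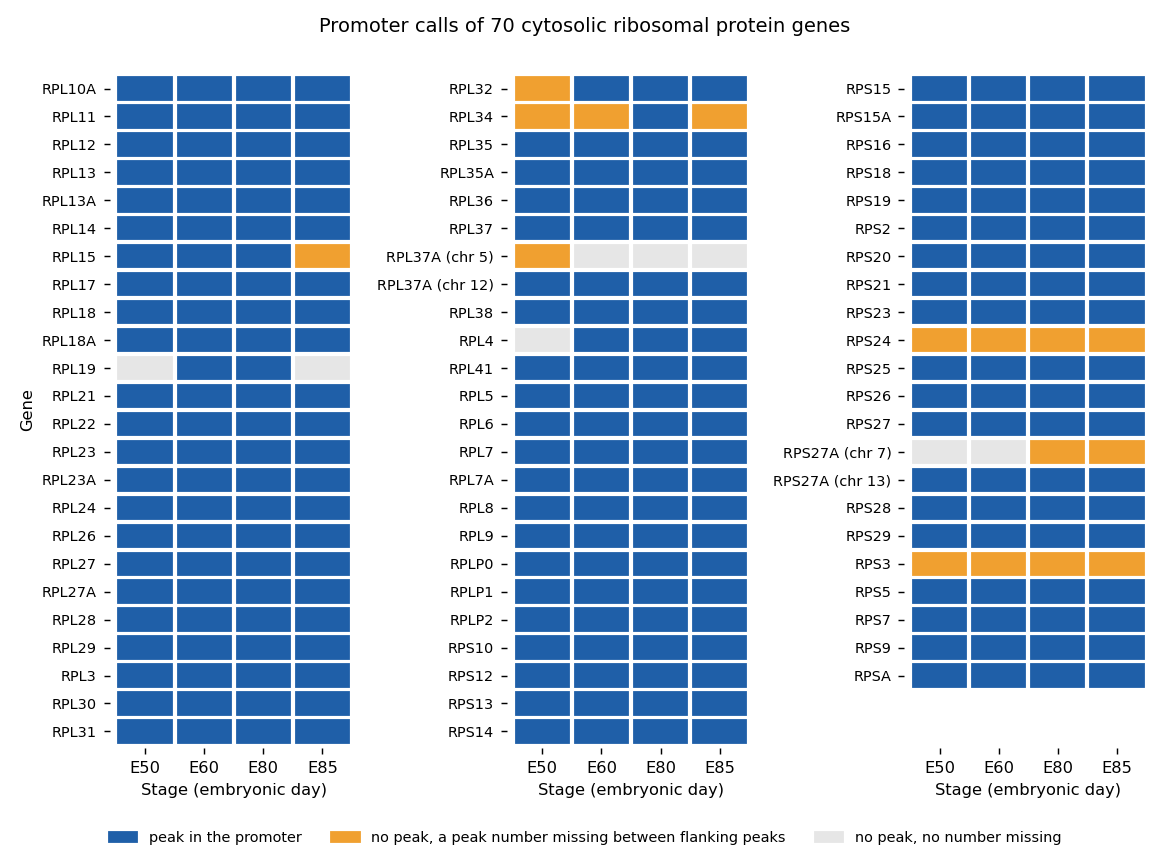
Promoter calls of 70 ribosomal protein genes (rows) at each stage (columns): blue, called; orange, not called with a peak number absent from the table between the flanking peaks; grey, not called with no number absent. The 61 genes in blue throughout include the stalk genes RPLP0, RPLP1 and RPLP2, and RPS3 and RPS24 have no blue cell.

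By subunit, the small subunit genes were called at all 4 stages or at none. Of 29 small subunit genes, 25 (86.2%, 68.3 to 96.1) were called at all 4 stages and 4 at none, with 0 in between (0 of 29, interval up to 11.9%). Of 44 large subunit genes, 39, 42, 43 and 40 were called at E50, E60, E80 and E85, 38 (86.4%, 72.6 to 94.8) at all 4 stages, 5 at 1 to 3 stages and 1 at none. The 5 large subunit genes in between were RPL4, RPL15, RPL19, RPL32 and RPL34, and the subunits' shares at each stage had overlapping intervals. Genes called at 1 to 3 stages made up 24.0% of all genes.

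Some genes with known roles are named here, picked with their values seen. Most were called at all 4 stages, as were 86.3% of the 73 genes. RPLP0, RPLP1 and RPLP2, which form the stalk that recruits translation factors, were each called at all 4 stages. So were RPL5 and RPL11, which with their ribosomal RNA partner bind MDM2 and link faulty ribosome assembly to p53. RPS19, the gene most often mutated in the inherited anaemia Diamond-Blackfan anaemia, was called at all 4 stages as well, whereas RPS24, another gene of that disease, was called at none. RPSA, also known as the laminin receptor, and RPL38, needed in mouse embryos for the translation of a set of Hox messenger RNAs, were called at all 4 stages too.

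The smallest peak set, E50, lost few of these promoters. Of 67 ribosomal protein promoters called at E60, 64 (95.5%, 87.5 to 99.1) were also called at E50, against 67.7% of all genes called at E60. The promoters called at E60 and not at E50 were RPL4, RPL19 and RPL32, 3 genes where the share over all genes was 21.3%, and 0 were called at E50 and not at E60, against 1.14% of all genes. At E80 and not at E50 were the same 3 genes and RPL34 (4 genes, against 19.7% of all genes), and 0 were called at E50 and not at E80 (against 0.998%). At E85 and not at E50 were RPL4 and RPL32 (2 genes, against 9.32% of all genes), and at E50 and not at E85 was RPL15 (1 gene, against 0.660%).

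Among the other pairs of stages, RPL34 was the 1 gene called at E80 and not at E60 (against 1.13% of all genes), and 0 were called at E60 and not at E80 (against 2.59%). RPL15 and RPL19 were called at E60 and not at E85 (2 genes, against 12.7% of all genes), and these and RPL34 at E80 and not at E85 (3 genes, against 11.1%). None, 0 genes, was called at E85 and not at E60 (against 1.19%) or at E85 and not at E80 (against 0.993%). Of 68 promoters called at E80, 65 (95.6%) were called at E85, against 82.9% of all genes called at E80.

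Other housekeeping gene lists had shares close to those of the ribosomal protein genes. At all 4 stages, 63 of 73 ribosomal protein genes (86.3%) were called, beside 20 of 22 genes of translation factors and other TOP messenger RNAs (90.9%, 70.8 to 98.9), 27 of 31 ribosome biogenesis genes (87.1%, 70.2 to 96.4) and 27 of 33 proteasome subunit genes (81.8%, 64.5 to 93.0). The mitochondrial ribosomal protein genes, which encode the separate ribosome of the mitochondrion, gave 55 of 79 (69.6%, 58.2 to 79.5), an interval that overlaps that of the cytosolic genes. At E60 the 2 kinds of ribosomal protein gene were close, with 67 of 73 cytosolic (91.8%) and 71 of 79 mitochondrial genes (89.9%, 81.0 to 95.5). Of those called at E60, 64 of 67 cytosolic genes (95.5%, 87.5 to 99.1) and 55 of 71 mitochondrial genes (77.5%, 66.0 to 86.5) were also called at E50, with intervals that did not overlap. The same measure was 27 of 30 (90.0%) for proteasome genes, 20 of 22 (90.9%) for TOP genes and 27 of 31 (87.1%) for biogenesis genes.

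**Figure D2:**
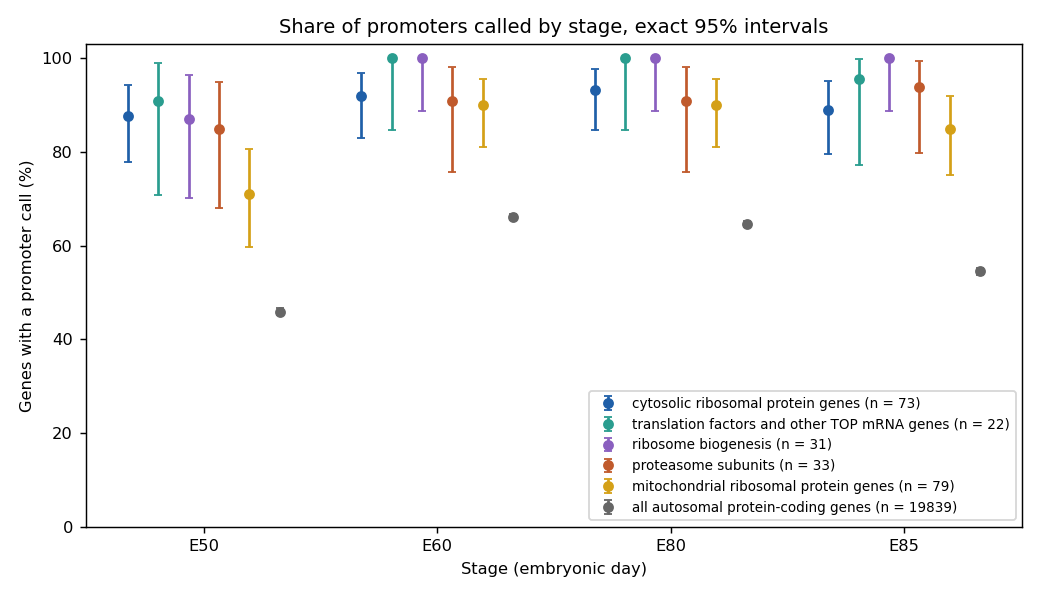
Percent of genes with a promoter call (y axis) at each stage (x axis) for the ribosomal protein genes, 4 comparison lists and all autosomal protein-coding genes; points are shares and bars are exact 95% intervals. The ribosomal protein genes sit between 87.7% and 93.2%, and the mitochondrial list dips to 70.9% at E50.

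The paralogs of ribosomal proteins split by name. RPL7L1, RPL22L1, RPL39L and RPS27L were called at all 4 stages, whereas RPL3L, RPL10L and RPL26L1 were called at none. That is 4 of 7 paralogs (57.1%, 18.4 to 90.1) at each stage, beside 86.3% of the ribosomal protein genes and 44.3% of all genes at all 4 stages, both inside that interval.

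Of the 5 genes with no promoter call, the records with 1 exon stand apart from the others by their structure. The RPL37A record on chromosome 5 is 364 bp long, and 362 of its 364 bases (99.5%) matched the transcript of the record on chromosome 12, which has 4 exons. The RPS27A record on chromosome 7 is 541 bp long, and 539 of its 541 bases (99.6%) matched the transcript of the record on chromosome 13, which has 6 exons. RPS27A encodes a fusion of ubiquitin with a small subunit protein. The records with introns were called at all 4 stages, in a region of 1062 bp at RPL37A on chromosome 12 and of 1675 bp at RPS27A on chromosome 13. The promoters of the 1-exon records held 36.0% and 37.0% G or C, in the 250 bases before to 50 bases after the start of RPL37A on chromosome 5 and RPS27A on chromosome 7, against a median of 57.0% over the 73 genes. Reads from the transcribed bases of such near-identical copies may not map uniquely, and the part of this in the missing calls was not tested.

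RPS3 and RPS24, uncalled genes of the small subunit, have introns. RPS3 lines the entry of the messenger RNA channel. At RPS3 and at RPS24 the annotated start lay in a region made of lifted peaks alone. Lifted peaks are those of 4 further peak sets in the table, which the labels do not define, and they were not counted as calls. The RPS24 region spans 1198 bp at chr9:59786729-59787926 and the RPS3 region spans 751 bp at chr14:68468400-68469150, and each held peaks of all 4 lifted sets and of 0 of the 4 stages.

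Peak numbers bear on these genes. Peaks of a stage are numbered in genome order, and some numbers are absent from the table, between 12.6% of them for the E60 set and 34.8% for the E50 set. Between the flanking peaks of RPS24, 17.7 kb apart, 1 number was absent at each of the 4 stages. Between those of RPS3 1, 2, 3 and 1 numbers were absent at E50, E60, E80 and E85, in intervals of 207, 35.3, 45.2 and 45.2 kb. An absent number could belong to any place in its interval, so it does not show a peak at the start. Of 28 pairs of a ribosomal protein gene and a stage without a call, 16 (57.1%) had an absent number between the flanking peaks. Over all genes it was 27.8% of such pairs (9252 of 33268). A gene counts once for each stage without a call, and RPS24 and RPS3 each gave 4 of the 16, so the pairs are not independent. The lengths of the intervals were not matched to those of all genes, and no conclusion is drawn from the difference.

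Over the 73 genes the annotated start codon lay a median of 51.0 bp from the nearest start upstream of it, and over 1000 bp away in 5 genes, among them RPS14, RPS15A, RPL32 and RPL34. A called region held a start codon at all 4 stages in 53 of 73 genes (72.6%, 60.9 to 82.4), against 29.2% of all genes with an annotated start codon.

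The genes called at 1 to 3 stages were all of the large subunit. RPL34 was called at E80 alone, in a region of 897 bp that holds the start and peaks of all 4 lifted sets. At each of E50, E60 and E85, 1 number was absent between its flanking peaks, in intervals of 1312, 111 and 1179 kb. RPL19 was called at E60 and E80, in 2 regions of 571 and 535 bp, the second of which holds the start. At E50 and E85 no number was absent across RPL19, in an interval of 22.1 kb.

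RPL4, a protein that lines the nascent chain tunnel, was called at E60, E80 and E85 in a region of 1122 bp that reaches from 836 bp upstream to 285 bp downstream of the start. At E50 no number was absent in the 70.0 kb around it. RPL32 was called at the same 3 stages in 2 regions, of 751 and 259 bp, and at E50 had 1 absent number in 216 kb. RPL15 was called at E50, E60 and E80 in a region of 1571 bp, and at E85 had 2 absent numbers in 86.6 kb. The start of another protein-coding gene lies in the promoter windows of RPL4 (ZWILCH) and RPL15 (NKIRAS1), and their calls cannot be assigned to 1 of the 2 genes.

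Among genes with a call at 1 or more stages, the widest promoter region had a median of 1139 bp over 68 ribosomal protein genes (95% interval of the median 1011 to 1263), which overlapped the interval over 13544 genes (median 1210 bp, 1199 to 1222). Among genes called at all 4 stages the ribosomal protein genes had the narrower regions. There the median was 1155 bp over 63 ribosomal protein genes (1016 to 1264), against 1338 bp over 8780 genes (1324 to 1354). The middle of the distribution ran from 898.0 to 1413 bp (quartiles), against 1036 to 1758 bp over all genes. Large subunit genes had a median of 1194 bp (1016 to 1401) and small subunit genes of 1145 bp (895 to 1220). The mitochondrial ribosomal protein genes had a median of 1019 bp (955 to 1226), proteasome genes of 1102 bp (962 to 1387), biogenesis genes of 1218 bp (1013 to 1423) and TOP genes of 1591 bp (1005 to 2114), all with intervals overlapping that of the ribosomal protein genes. A region is the union of peaks of several stages and lifted sets, so its width rests on all of them.

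**Figure D3:**
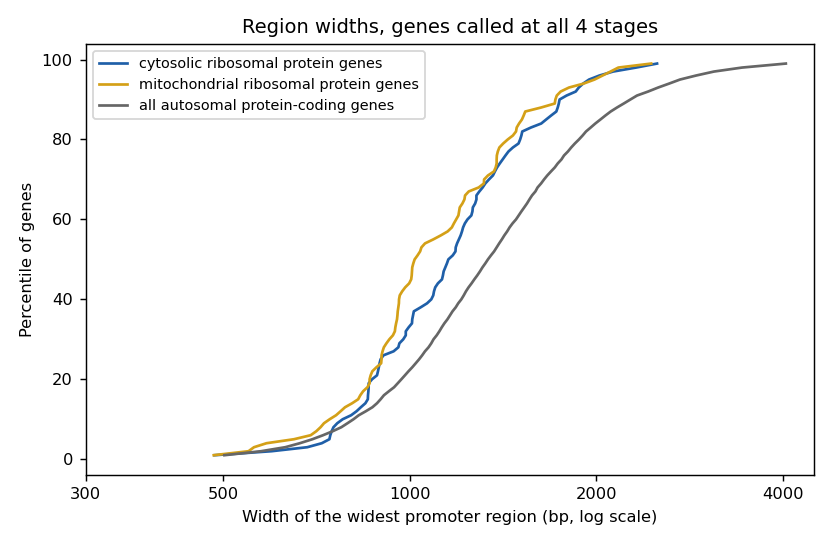
Width of the widest promoter region (x axis, bp, log scale) by percentile of genes (y axis), for genes called at all 4 stages. The line of the ribosomal protein genes, median 1155 bp, runs left of the line of all genes, median 1338 bp, over most of its length, and the line of the mitochondrial genes has a median of 1019 bp.

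The centre of the widest region lay between -912 bp (upstream, at RPL7) and 768 bp (downstream, at RPL36) from the start, and within 100 bp of it in 35 of 68 called genes. Among genes called at all 4 stages, the widest region held an annotated start at 63 of 63 ribosomal protein genes (100%, 94.3 to 100), against 94.1% of all genes. Its edges lay a median of 554.0 bp upstream and 582.0 bp downstream of the start, against 589.0 and 708.0 bp over all genes. The centre of the region was downstream of the start in 49.2% of the ribosomal protein genes (36.4 to 62.1), an interval that holds the 60.0% of all genes.

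RPL7, a large subunit protein, had the widest region, 2694 bp, which reached 2259 bp upstream and 434 bp downstream of the start. RPL12 followed with 2394 bp, of which 1193 bp were upstream, RPL23A with 2087 bp (1697 bp upstream), RPS12 with 1955 bp (1372 bp upstream) and RPL28 with 1887 bp (1035 bp upstream). In these 5 genes the upstream side was over 1000 bp long, and each region lay within 1000 bp of a start of another gene (RDH10, LRSAM1, RAB34, LOC114677492 and TMEM238 in that order), so it cannot be assigned to the ribosomal protein gene alone. Such a start lay near the widest region of 23 of 68 called genes (33.8%, 22.8 to 46.3), against 27.9% of all called genes. The narrowest were RPL29 with 351 bp, RPS27 with 566 bp, RPL19 with 571 bp, RPL6 with 703 bp and RPLP0 with 742 bp. The region of RPL29 reached 238 bp upstream and 112 bp downstream of the start, and that of RPS27 245 bp upstream and 320 bp downstream.

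**Figure D4:**
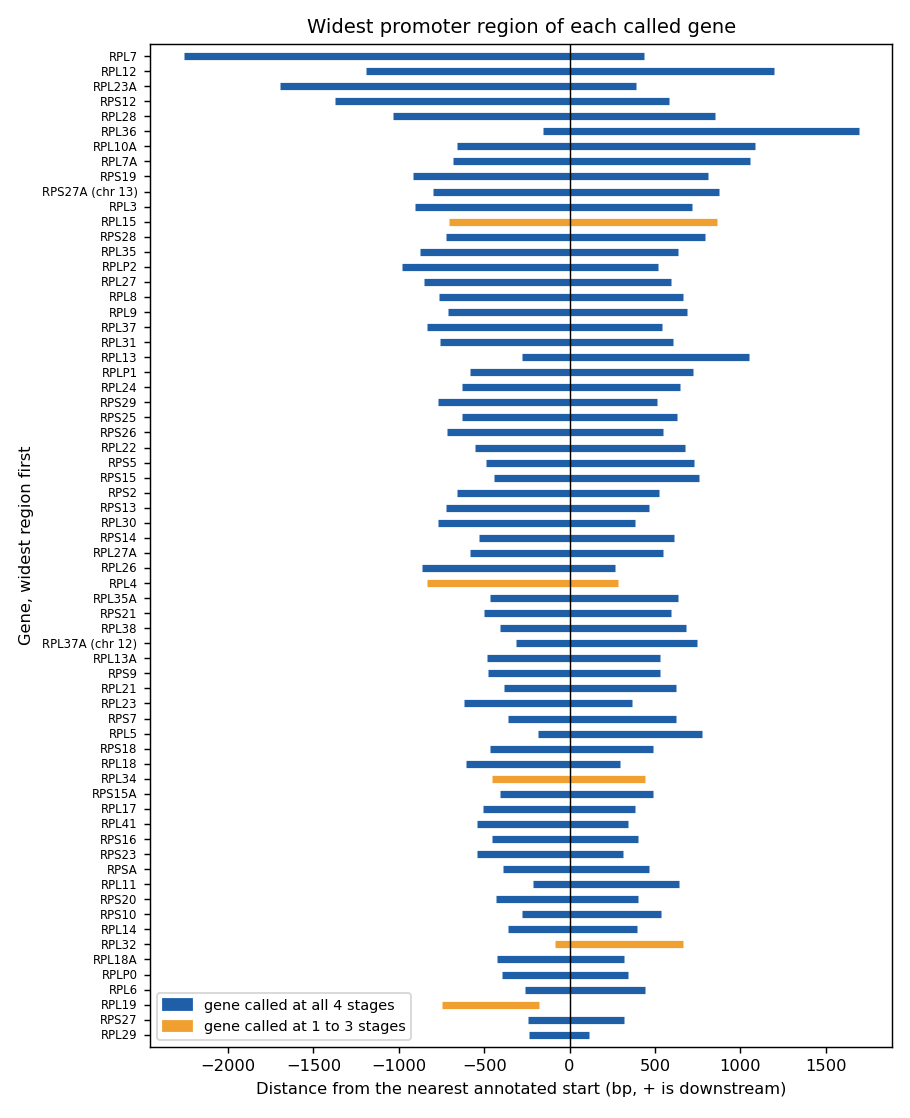
Extent of the widest promoter region of 66 called ribosomal protein genes (rows, widest first) as distance from the nearest annotated start in bp (x axis, downstream positive): blue, called at all 4 stages; orange, called at 1 to 3 stages. The bars run from 2694 bp at RPL7 to 351 bp at RPL29, and the bar of RPL19 ends before the start.

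The promoter calls came mostly from 1 region per gene, as over all genes. In all, 75 regions overlapped the 68 called promoters, 63 of them called at all 4 stages, with 61 genes holding 1 region (89.7%, 79.9 to 95.8, against 82.6% of all called genes) and 7 holding 2. The 7 were RPL13A, RPL15, RPL19, RPL23A, RPL24, RPL32 and RPLP0. More than 1 peak of the same stage fell in the promoter regions of 1, 8, 6 and 5 genes at E50, E60, E80 and E85. Lifted peaks of all 4 sets lay in the promoter regions of 46 of the 63 genes called at all 4 stages (73.0%, 60.3 to 83.4), against 88.1% of all such genes. The promoter regions held no lifted peak at 4 of the 63 (6.35%, 1.76 to 15.5), among them RPL7A, RPLP0 and RPS2, against 2.12% of all such genes.

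Regions elsewhere near these genes were counted next. In the gene body or the 5000 bp upstream, outside the promoter, 17 of 73 genes (23.3%) had a region, against 49.9% of all genes. The ribosomal protein genes are short, with a median length of 4056 bp against 21520 bp over all genes, and the part of length in this difference was not tested. With 20000 bp upstream in place of 5000 bp, 69.9% of the ribosomal protein genes (58.0 to 80.1) and 66.6% of all genes had such a region, and the difference was no longer beyond the interval. Of 23 such regions, 10 (43.5%) were called at all 4 stages, against 17.2% of those at all genes, and 6 (26.1%) at a single stage, against 35.2%. A start of another gene lay within 1000 bp of 12 of the 23, among them 7 of the 10 called at all 4 stages. Examples were SPHK2 upstream of RPL18, POLR3A upstream of RPS24 and RAB13 upstream of RPS27. The share of such regions over all genes is not given here, so these counts cannot be called high or low. The part of such starts in the difference from all genes was not tested.

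RPL38 had the most regions outside its promoter, 3, called at E60, E80 and E85, at E60 alone and at E80 alone. RPL19, RPS2 and RPS27 had 2 each. In the gene body 7 regions lay outside the promoter, and among them those of RPS15A and RPL38 were called at E80 alone, with widths of 381 and 559 bp. The body region of RPL3, 789 bp wide, was called at E50, E80 and E85.

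Many of these genes house small nucleolar RNAs, and some share a promoter window with another gene. Another protein-coding gene started within the promoter window of 17 genes (23.3%, 14.2 to 34.6), against 15.1% of all genes, a share within the interval. The first by symbol were RPL12 (with LRSAM1), RPL15 (NKIRAS1), RPL18 (SPHK2), RPL21 (USP12) and RPL31 (LOC106993089). Small nucleolar RNAs, which guide the chemical modification of ribosomal RNA and are often cut from introns, lay within 25 genes (34.2%), against 2.12% of all genes. They numbered 53, with at most 4 in a gene.

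Promoter sequence was searched for 8 motifs in the 250 bases before to 50 bases after the start, on both strands, as exact letters. For motifs and base composition the start is the 5′ end of the gene record, while calls used every annotated start. Of the 73 genes, 38 had 1 annotated start, and in the others the searched bases may lie away from the start that was called. The largest difference in share from all promoters was that of the TOP-like tract, spelled CTTTCT, in another form CTCTTT, in another CCTTTT and in the last CTTTTC, read on the strand of the gene within 50 bases of the start, whose forms can overlap each other. It was found in 30 of 73 ribosomal protein promoters (41.1%, 29.7 to 53.2), against 15 of 79 mitochondrial ones (19.0%, 11.0 to 29.4) and 10.8% of 19833 promoters of all genes with full sequence. Examples were RPL7, RPL23A, RPLP1, RPS12 and RPS20. Only these spellings were counted, before or after the start, so the share does not measure how many genes have a TOP tract. The RPS3 start, for instance, begins with the pyrimidine run ctttttctttc, which holds none of the spellings and was not counted. The ETS/GABP motif CCGGAAG was found in 22 (30.1%, 19.9 to 42.0), against 20 of 79 mitochondrial ones (25.3%, 16.2 to 36.4) and 10.1% of all promoters. The 22 include RPL3, RPLP2, RPS9 and RPS19.

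The CRE core TGACGT was found in 13 promoters (17.8%, 9.84 to 28.5), against 8.06% of all, including RPL5 and RPSA. In the 100 bases before to 50 after the start it was found in 9.59% (3.94 to 18.8), an interval that holds the 5.42% of all promoters. The NRF1 motif GCATGCGC was found in 7 (9.59%, 3.94 to 18.8), against 3.19% of all. The YY1 motif AANATGGC was found in 8 (11.0%, 4.85 to 20.5), an interval that holds the share of all promoters, 6.06%. These were RPL6, RPL12, RPL13A, RPL14, RPL23A, RPS3, RPS27 and RPS28, with the match 9 bases after the start in RPL23A and 27 bases after it in RPS3. In RPL23A and RPS3 the ATG of the match is the annotated start codon, 12 and 30 bp from the start. The SP/KLF motif GGGCGG was found in 36 (49.3%, 37.4 to 61.3), against 48.7% of all, the TATA motif TATAAA in 6 (8.22%), against 11.2%, and the E-box CACGTG in 4 (5.48%, 1.51 to 13.4), against 7.70%. For these last 3 the interval held the share of all promoters. A match is a description of the letters and does not show that a factor binds.

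**Figure D5:**
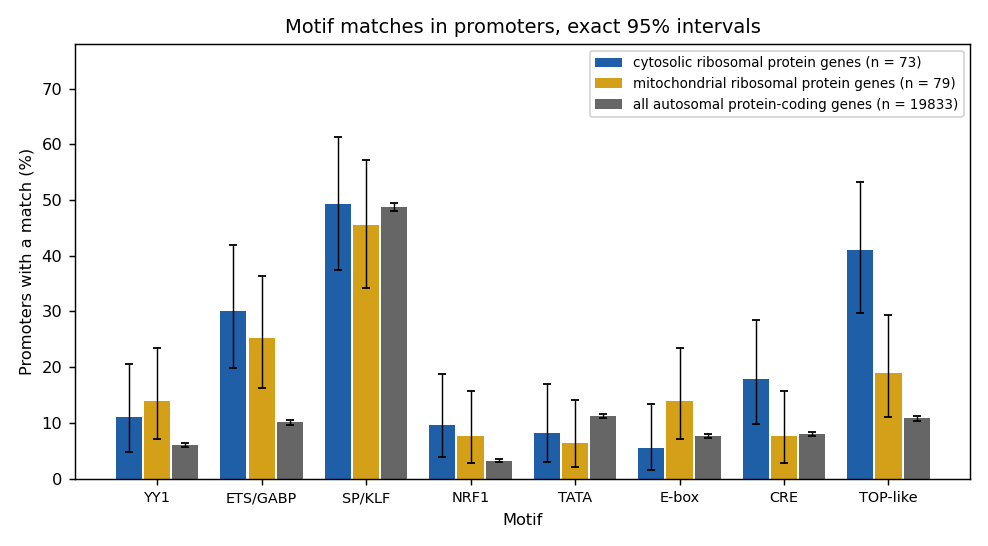
Percent of promoters with a match (y axis) for each of 8 motifs (x axis), in ribosomal protein genes, mitochondrial ribosomal protein genes and all autosomal protein-coding genes; bars start at 0 and error bars are exact 95% intervals. The TOP-like tract stands at 41.1% in the ribosomal protein genes, against 19.0% and 10.8% in the other groups, and SP/KLF stands near 49% in the ribosomal protein genes and in all genes.

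Base composition was close to that of other promoters, and CpG pairs were more frequent. The ribosomal protein promoters had a median of 57.0% G or C, against 58.3% in all promoters. The median ratio of CpG observed to that expected from base composition was 0.893, against 0.819 in mitochondrial ribosomal protein promoters and 0.666 in all promoters.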

How the data were processed

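Each stage gave 1 culture and 2 technical Omni-ATAC libraries, per the labels' protocols. Reads were handled with cutadapt 4.4, Bowtie2 2.5.1 and SAMtools 1.15 on rheMac10, per the submitters' processing notes. Not given in the sources used here are the peak caller, its threshold and the filter behind the absent peak numbers. The table deposited by the authors lists 112696 merged regions, of which 72358 hold a stage peak and 40338 hold lifted peaks alone. Its 8 value columns carry no names and were not used, so depth per library was not used here. No measured value enters the results, and the stage codes in the deposited peak names were the only measurement.

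Starts in the table count from 0 and were turned into 1-based coordinates. Gene models were those of NCBI for Mmul_10, the assembly that rheMac10 names. Overlaps, peak numbering, widths and motifs were computed in Python 3.11.15 with NumPy 2.4.6 and SciPy 1.17.1, the copies were aligned with edlib 1.3.9.post1, and overlap calls and peak numbering were tested on simulated regions. Intervals of shares are exact Clopper-Pearson 95% intervals and cover counting error only, and intervals of medians come from order statistics. With 1 peak set per stage no test across stages was made. Named genes were those lacking a call at a stage, the 5 widest and 5 narrowest promoter regions, the 5 genes with the most regions outside the promoter and the first 5 by symbol that share a promoter window. Single results of some genes are not reported here. Genes named beyond these were chosen for their known role or as examples after their values were seen. The genes and lists were chosen with earlier results of these data known. Found in the annotation were 33 of 34 listed proteasome symbols, 22 of 23 TOP symbols and 31 of 34 biogenesis symbols. Alternatives changed the promoter width, the starts, the overlap, the region width, the neighbours, the stages, the loci and the motif window.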

Additional observations from a re-analysis of the deposited data

Results flagged for a closer look

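RPS24 and RPS3 drew attention because a signal appeared at their starts in peak sets that the comparisons do not use. At RPS24, peaks of 4 lifted sets overlapped the start where no stage had a peak, and at RPS3, peaks of 4 lifted sets did the same. The lifted sets are not defined by the labels, and no control set was at hand.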

How the results depend on the processing

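In 51 of 60 alternatives over 15 results the value moved by less than its counting interval, and in 9 it moved further. Counting regions of at most 1000 bp alone lowered the called shares of the ribosomal protein genes to 28.8%, 37.0%, 34.2% and 31.5% at E50, E60, E80 and E85 and to 28.8% at all 4 stages, against 12.2%, 27.9%, 26.1%, 17.3% and 11.4% of all genes, and at E60 and E80 the share of all genes lay inside the interval. Regions without a lifted peak, present at 8 genes, had a median width of 683.0 bp (230 to 1739), against 392.0 bp at 1537 genes of all, inside that interval. Genes with a region outside the promoter made up 8.22% with the gene body alone, against 42.6% of all genes, and 69.9% with 20000 bp upstream, against 66.6%, inside the interval. The CRE share was 9.59% (3.94 to 18.8) in the 100 bases before to 50 after the start, against 5.42% of all promoters, inside the interval. Leaving out the 2 records with 1 exon was chosen after seeing the data and moved no share beyond its interval. No paired analysis was possible because the results come from no test, the peak sets carry no library and the replicates are technical. A promoter open below the unstated peak threshold is counted as not called, and the part of depth in the missing calls was not tested.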
